A study of Rattus norvegicus with 12 samples.

Results

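The genes described here encode the machinery that moves vesicles and releases their contents. They were taken as every array probe whose platform gene symbol begins with Rab, Syt, Stx, Snap, Vamp or Cplx followed by a digit, with Stxbp or Sv2, or is Syn1, Syn2 or Syn3. This gave 109 probes for 104 gene symbols, of 22523 probes on the array, 13793 of which carried a gene symbol. The samples were the pituitary and the hypothalamus of male Wistar rats at postnatal day 70, and in all of them the mother had been dosed by mouth on gestation day 15. In the TCDD groups she received 2,3,7,8-tetrachlorodibenzo-p-dioxin, the most potent dioxin, in corn oil, and in the vehicle groups the vehicle. Each of the 4 groups (vehicle pituitary, TCDD pituitary, vehicle hypothalamus, TCDD hypothalamus) had 3 Illumina RatRef-12 arrays. The study asked whether a change in expression that persists into adulthood accompanies impaired sexual behaviour. The dams were exposed and their adult sons were sampled, but the descriptions do not tie arrays to litters or say whether tissue was pooled, so the p-values measure the spread between these samples only. The 2 descriptions of the dose disagree in their unit, and no dose is given here.

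Secretory vesicles fuse with the cell membrane when a SNARE protein on the vesicle (a Vamp) zips together with SNAREs on the membrane (syntaxins, encoded by Stx genes, and Snap25). Munc18 proteins, encoded by Stxbp genes, guide the assembly. Synaptotagmins (Syt) sense the calcium that triggers fusion, complexins (Cplx) clamp and prime the complex, synapsins (Syn) hold synaptic vesicles in reserve, and Sv2 proteins are glycoproteins of vesicle membranes. Rab proteins are small GTPases that give each compartment its identity, and the Rab3 and Rab27 branches act on secretory vesicles. Hypothalamic neurons release transmitter from small synaptic vesicles and peptides from dense-core granules, whereas pituitary endocrine cells release hormones from dense-core granules.

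A probe counted as detected on an array when its deposited detection p-value, set against the negative control beads, was under 0.05. Of the 109 member probes, 57 were detected on all 12 arrays and 22 on none. Another 11 were detected on all 6 hypothalamus arrays and on 0 pituitary arrays: Rab15, Rab3il1, Rab7b, Stx1a, Syn1, Syn2, Syn3, Syt3, Syt12, Syt16 and Vamp1. Only Rab19 and Stxbp2 were detected on all 6 pituitary arrays and on 0 hypothalamus arrays. Between 65 and 68 members were detected on a pituitary array, and between 77 and 81 on a hypothalamus array. The whole arrays differed the same way, with 44.1 to 46.0% of all probes detected in the pituitary and 48.2 to 50.8% in the hypothalamus. The number of arrays, and signal over background, limit the precision. The 22 probes detected on no array included those of Cplx3, Sv2c, Syt2, Syt8, Syt9, Syt15, Stx11, Stx17, Stxbp5l and Stxbp6.

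The tissues served as checks on each other. The 10 pituitary hormone and endocrine marker probes were all higher in the vehicle pituitary, with a summed level of 101000 to 115000 against 3100 to 8340 in the vehicle hypothalamus, where Fshb, Ghrhr, Gnrhr, Pou1f1 and Tbx19 were not detected. Of 13 neuronal marker probes, 12 were higher in the vehicle hypothalamus, with a summed level of 56900 to 57200 against 14100 to 14600. All 7 astrocyte probes (50800 to 59000 against 6080 to 6960) and 8 of 9 oligodendrocyte probes (22200 to 34000 against 1040 to 1060) were also higher there, and Aqp4, Mag, Mobp, Mog and Olig1 were not detected in the vehicle pituitary. The part of this cell make-up in any tissue difference below was not tested. In bulk tissue, fewer cells of a type and less RNA per cell cannot be told apart.

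Between the vehicle tissues, the 4 synaptic SNARE probes, the 3 synapsins and 5 of 10 tested synaptotagmins were higher in the hypothalamus, while Rab25, Rab3d, Rab27a, Rab19 and Vamp8 had the largest differences towards the pituitary. Stx1a, Vamp1, the 3 synapsins, Syt3, Syt12 and Syt16 were detected on no pituitary array and Rab19 on no hypothalamus array. These probes entered the test through 1 tissue alone, which fixed their direction, so these family counts partly reflect detection. Of 82 member probes tested (detected on at least 3 of the 12 arrays), 36 were higher in the hypothalamus and 25 in the pituitary at an adjusted p under 0.05 (limma, Benjamini-Hochberg over all 12071 probes tested). As shares of the members tested these were 43.9% and 30.5%, against 28.5% (hypothalamus) and 35.7% (pituitary) of all probes tested. The median log2 difference, pituitary minus hypothalamus, was -0.22 over the members and 0.09 over all probes. At 2-fold or more, 16 members were higher in the hypothalamus and 9 in the pituitary, where the shares over all probes were 12.2% and 10.1%. The 36 include members detected in the hypothalamus alone. Among the 57 detected on all 12 arrays, 21 were higher in the hypothalamus and 23 in the pituitary, against 26.5% and 41.2% of the 8374 such probes. Scaling moves this balance: with each array scaled to its median, the median over all probes went from 0.09 to -0.04, 44.6% instead of 55.6% of all calls were higher in the pituitary, and 19 of 60 called members were. With cyclic loess the share was 46.1% of all calls and 22 of 63 members.

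**Figure D1:**
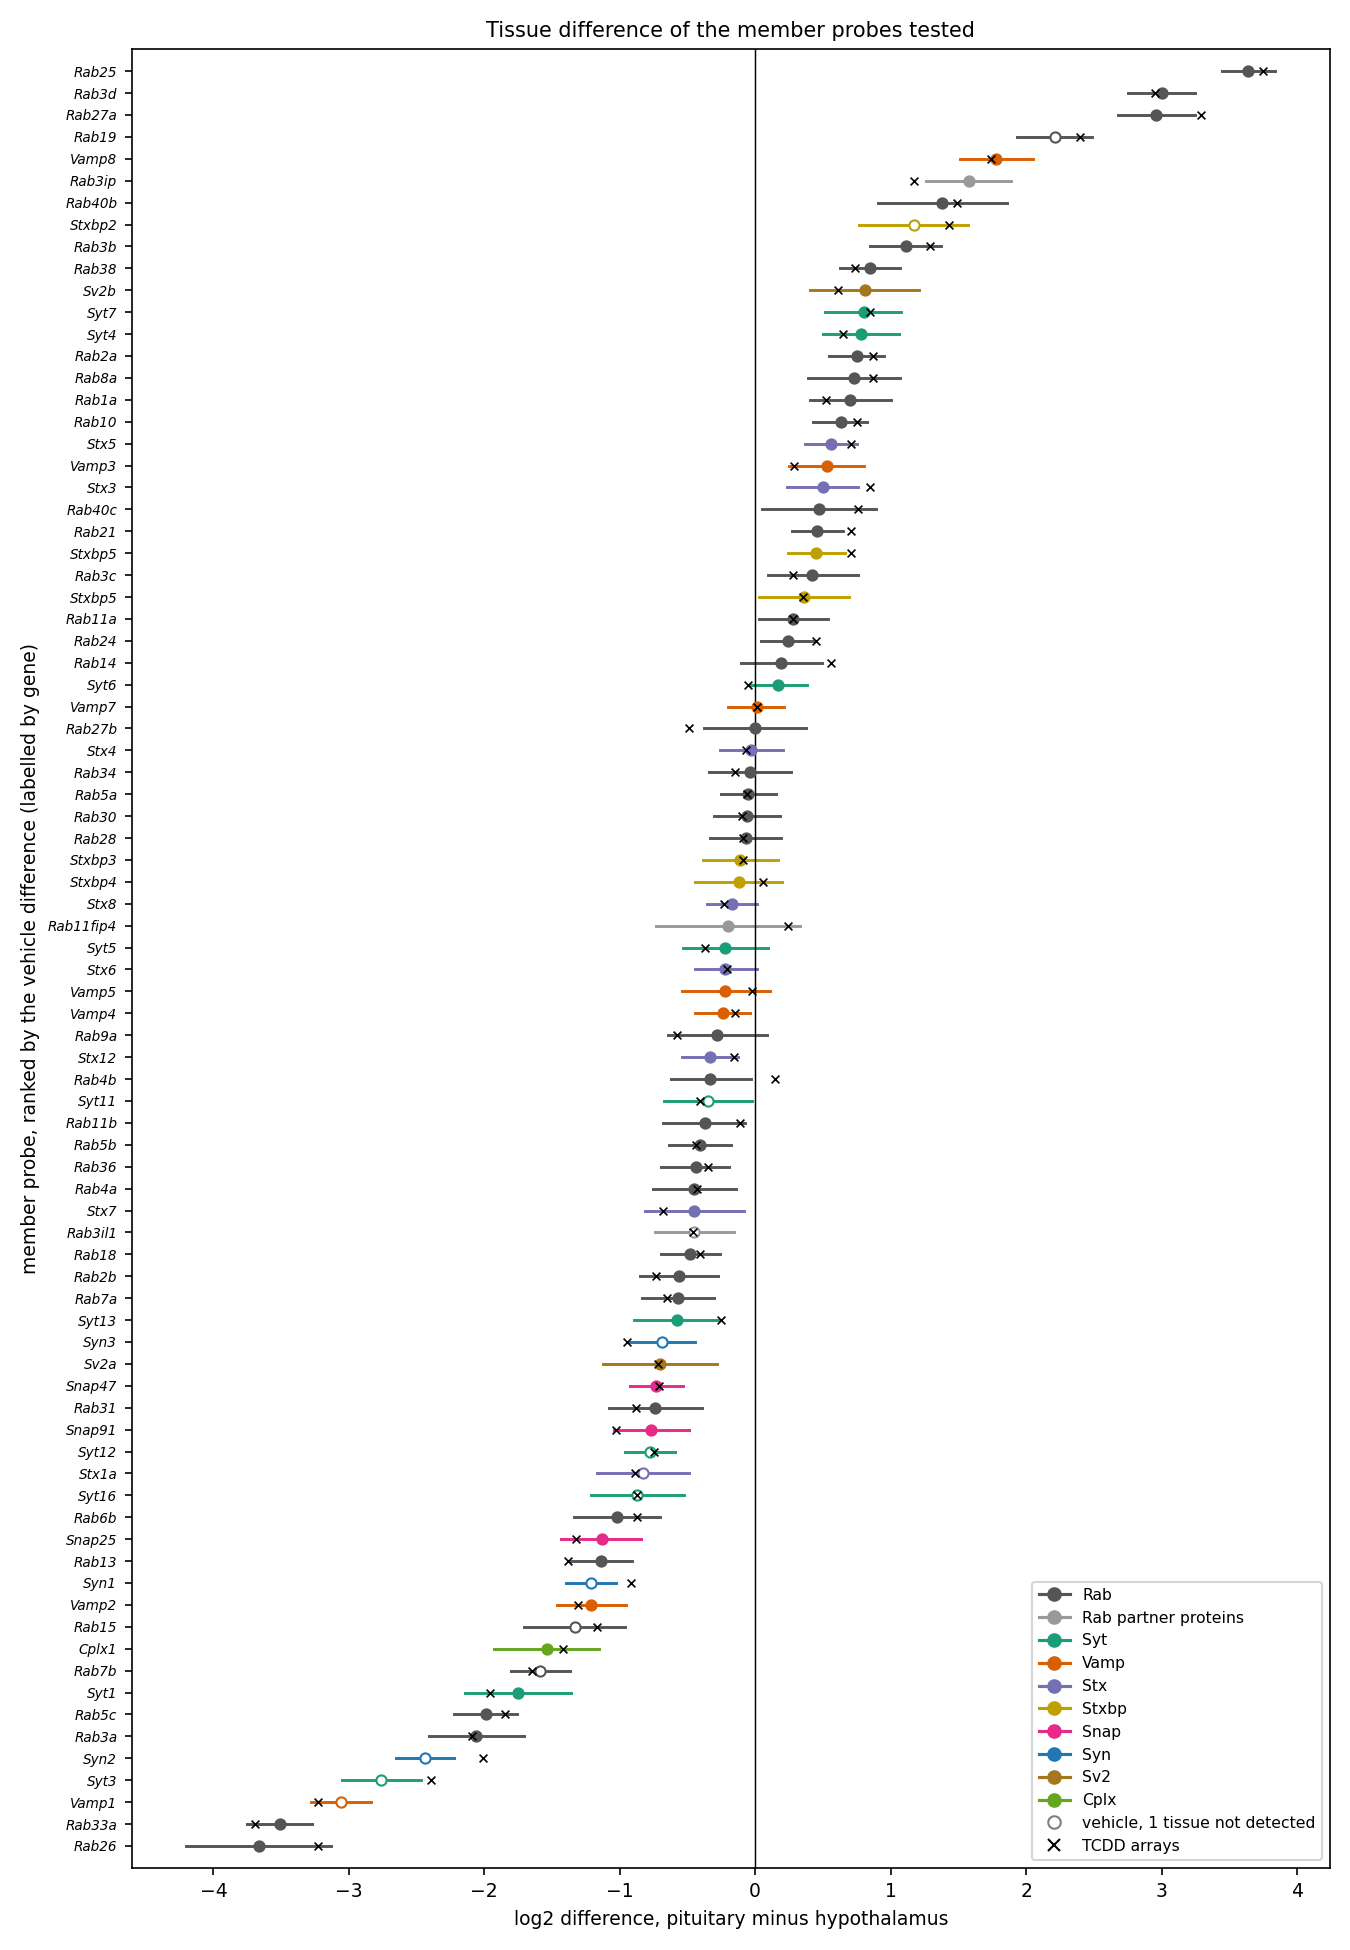
Log2 difference between pituitary and hypothalamus (x axis, pituitary minus hypothalamus) for the 82 member probes tested, one row each; circles are the vehicle arrays with their 95% confidence interval, open where 1 tissue was not detected, and crosses are the TCDD arrays. Rab26 lies lowest at -3.66 and Rab25 highest at 3.64, and the crosses lie within 0.48 of the circles.

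The TCDD arrays gave the same tissue comparison on samples that the vehicle comparison does not use, although the fitted spread is shared. There, 37 members were higher in the hypothalamus and 24 in the pituitary, against 28.8% and 35.8% of all probes. The 55 members called in both sets of arrays had the same direction in both, and 0 had opposite directions. Over all probes, 6801 were called in both with the same direction and 6 with opposite directions. Over the 82 members the 2 sets of differences had a Pearson correlation of 0.987, against 0.974 over all probes, a description of probes measured on the same platform and normalized together. The largest gap between them was 0.48, for Rab27b.

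The secretory Rabs split by isoform. Rab3a, the main synaptic vesicle Rab in neurons, had log2 intensities of 6.34, 6.76 and 6.94 in the vehicle pituitary and of 8.75, 8.94 and 8.52 in the vehicle hypothalamus. Every hypothalamus array was above every pituitary array, a 4.16-fold difference (log2 -2.06, SE 0.160, adjusted p = 2.01e-07 in the limma fit). Rab3d, the isoform known from zymogen and other large secretory granules, went the other way. Its values were 11.79, 11.68 and 11.46 in the vehicle pituitary against 8.83, 8.60 and 8.50 in the vehicle hypothalamus, 8.01-fold higher in the pituitary (log2 3.00, SE 0.116, adjusted p = 2.87e-10). Rab3b, found in anterior pituitary cells and in some neurons, was 2.16-fold higher in the pituitary, at 9.18, 9.33 and 9.42 against 8.00, 8.38 and 8.23. Rab3c was 1.34-fold higher in the pituitary (adjusted p = 0.0278), with 6.71, 6.47 and 6.37 against 5.97, 6.17 and 6.14. Its call was lost with median scaling (log2 0.27) and cyclic loess (0.25), and when vehicle pituitary array 1 (adjusted p = 0.109) or vehicle hypothalamus array 1 (adjusted p = 0.0856) was left out of the limma fit. On the TCDD arrays the Rab3a and Rab3d folds were 4.26 and 7.73, and the Rab3c groups overlapped.

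Rab27a tethers granules to the cell cortex. It had 8.57, 8.59 and 8.92 in the vehicle pituitary against 5.77, 5.74 and 5.68 in the vehicle hypothalamus, a 7.80-fold difference (log2 2.96, SE 0.130, adjusted p = 9.58e-10). Its paralog Rab27b, which acts in the same step, had 6.35, 6.35 and 6.04 against 6.12, 6.33 and 6.30. Those groups overlapped, and the log2 difference was 0.00 with a 95% interval of -0.378 to 0.374. On the TCDD arrays Rab27b was lower in the pituitary by a log2 difference of -0.49 (adjusted p = 0.0258), with overlapping groups, since pituitary values of 6.23, 5.77 and 5.38 met hypothalamus values of 6.22, 6.30 and 6.31. Rab26, a Rab of secretory granules and synaptic vesicles, was lowest in the pituitary relative to the hypothalamus of all members tested. Its values were 7.02, 6.67 and 6.69 against 10.42, 10.55 and 10.40, a 12.7-fold difference (log2 -3.66, SE 0.246, adjusted p = 4.90e-08). Of the 7 secretory Rab probes, 2 were thus higher in the hypothalamus and 4 in the pituitary, and Rab27b was called in neither direction. The shares over all probes tested were 28.5% and 35.7%.

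**Figure D2:**
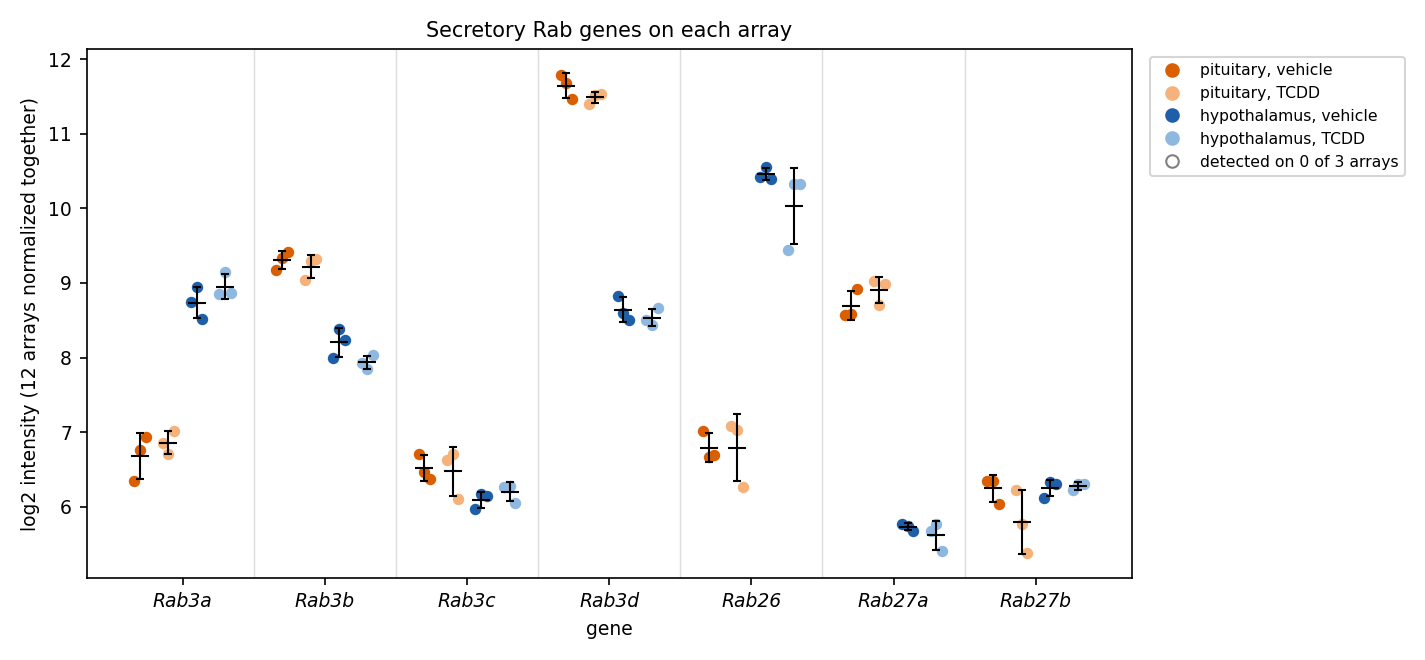
Log2 intensity (y axis) of the 7 secretory Rab probes (x axis) on each of the 12 arrays; points are arrays, colours the 4 groups, and black bars the group mean with its SD. Rab3a and Rab26 are higher in the hypothalamus and Rab3d and Rab27a in the pituitary on every array, while the Rab27b groups overlap.

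The promoters of Rab3a and Rab3d are shown because these paralogs had opposite tissue differences. Each runs from 250 bases before to 50 bases after the annotated start, 5′ to 3′ on the gene's strand, from RefSeq on build GRCr8. Capitals mark the GC box GGGCGG, bound by Sp1-type factors, the cAMP response element TGACGTCA and the dioxin response element core TNGCGTG, each searched on both strands. The Rab3a promoter is chr16:18722224-18722523 on the minus strand and the Rab3d promoter chr8:28725218-28725517 on the minus strand.
Rab3a: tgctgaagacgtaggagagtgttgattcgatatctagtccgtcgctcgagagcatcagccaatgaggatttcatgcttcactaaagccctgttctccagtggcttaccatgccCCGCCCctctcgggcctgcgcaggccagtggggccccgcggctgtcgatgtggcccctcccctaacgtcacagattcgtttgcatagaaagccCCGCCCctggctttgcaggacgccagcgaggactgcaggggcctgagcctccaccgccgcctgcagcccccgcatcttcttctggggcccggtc
Rab3d: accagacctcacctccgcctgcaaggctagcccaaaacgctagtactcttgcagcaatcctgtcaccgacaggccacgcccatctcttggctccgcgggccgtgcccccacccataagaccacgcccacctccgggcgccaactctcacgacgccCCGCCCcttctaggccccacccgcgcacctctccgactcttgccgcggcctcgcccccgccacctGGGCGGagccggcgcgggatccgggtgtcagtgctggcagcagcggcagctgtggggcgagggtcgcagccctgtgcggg
Both held a GC box at 2 places and neither of the other motifs, so these letters do not separate the paralogs. Rab3a had 62.7% G and C and Rab3d 71%.

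The synaptic SNAREs on the array, 4 probes, were all higher in the hypothalamus, against 28.5% of all probes tested. Vamp1 and Stx1a passed the detection filter through the hypothalamus arrays alone, which fixed their direction. Snap25, the membrane SNARE of neurons and endocrine cells, was strongly measured in both tissues. It had 11.01, 11.09 and 10.78 in the vehicle pituitary against 12.02, 11.87 and 12.39 in the vehicle hypothalamus, 2.19-fold higher in the hypothalamus (log2 -1.13, SE 0.135, adjusted p = 1.03e-05). Vamp2, the vesicle SNARE of most central synapses, had 6.81, 6.57 and 6.60 against 8.09, 7.71 and 7.82, a 2.31-fold difference (adjusted p = 1.44e-06). Vamp1, its paralog, was not detected in the pituitary and stood at 7.75, 7.91 and 7.96 in the vehicle hypothalamus. Where a tissue was not detected, the fold is a lower bound, computed against the dimmest detected signal of each of its arrays or the probe's own signal, whichever was higher. By this bound Vamp1 was at least 5.23-fold higher in the hypothalamus (adjusted p = 8.14e-11). Stx1a, the neuronal membrane syntaxin, was near background in the hypothalamus, at 6.21, 5.76 and 5.53, and not detected in the pituitary, which makes it at least 1.27-fold higher in the hypothalamus (adjusted p = 0.000498).

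The other SNAREs and Munc18 proteins, which serve Golgi, endosomal and constitutive routes or secretion in other cells, had 24 probes, of which 18 were tested. Of these, 6 were higher in the pituitary against 4 in the hypothalamus, a split near that of all probes tested (35.7% and 28.5%). That order turned with scaling, to 4 and 7 with median scaling and 6 and 7 with cyclic loess. Vamp8, an endosomal SNARE that also serves granule release in exocrine and blood cells, had 10.79, 10.67 and 10.68 in the vehicle pituitary against 8.84, 8.82 and 9.12 in the vehicle hypothalamus. That was 3.44-fold higher in the pituitary (log2 1.78, SE 0.125, adjusted p = 7.15e-08). Stxbp2, the Munc18 form of nonneuronal secretory cells, was detected on no hypothalamus array and stood at 6.54, 5.92 and 6.44 in the vehicle pituitary, at least 1.96-fold higher (adjusted p = 0.000118). Stx5, the syntaxin of the early Golgi, was 1.47-fold higher in the pituitary, Vamp3, a recycling endosome SNARE, 1.44-fold, and Stx3, a syntaxin of apical and ribbon-synapse release, 1.41-fold. Stxbp5 (tomosyn, which holds SNAREs inactive) had 3 probes: one was 1.37-fold higher in the pituitary (adjusted p = 0.00135), one had a log2 difference of 0.36 that was not called (adjusted p = 0.0566), and one was not detected. With median scaling the calls of Vamp3 and Stxbp5 were lost, at log2 differences of 0.33 and 0.27.

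Higher in the hypothalamus were Snap47 by 1.66-fold, the endosomal syntaxins Stx7 (1.36-fold) and Stx12 (1.26-fold), and Vamp4, a trans-Golgi SNARE, by 1.18-fold. The calls of Stx7 (adjusted p = 0.0326) and Vamp4 (adjusted p = 0.0353) were lost in the limma fit with fewer arrays. The Stx7 log2 difference of -0.45 became -0.40 without vehicle pituitary array 2 or 3 (adjusted p = 0.0938 and 0.0954) and -0.28 without vehicle hypothalamus array 3 (adjusted p = 0.147). The Vamp4 difference of -0.24 lay between -0.26 and -0.19 without vehicle pituitary array 2 or 3 or vehicle hypothalamus array 1 or 3 (adjusted p = 0.0538 to 0.130). Not called were Stx4, Stx6, Stx8, Stxbp3, Stxbp4 and Vamp5, with log2 differences from -0.22 to -0.03, and Vamp7. Vamp7, a lysosomal SNARE, had a log2 difference of 0.01 with a 95% interval of -0.204 to 0.216, which median scaling turned to -0.19 and cyclic loess to -0.12. Stx16 was detected on 1 array in each pituitary group and was not tested.

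**Figure D3:**
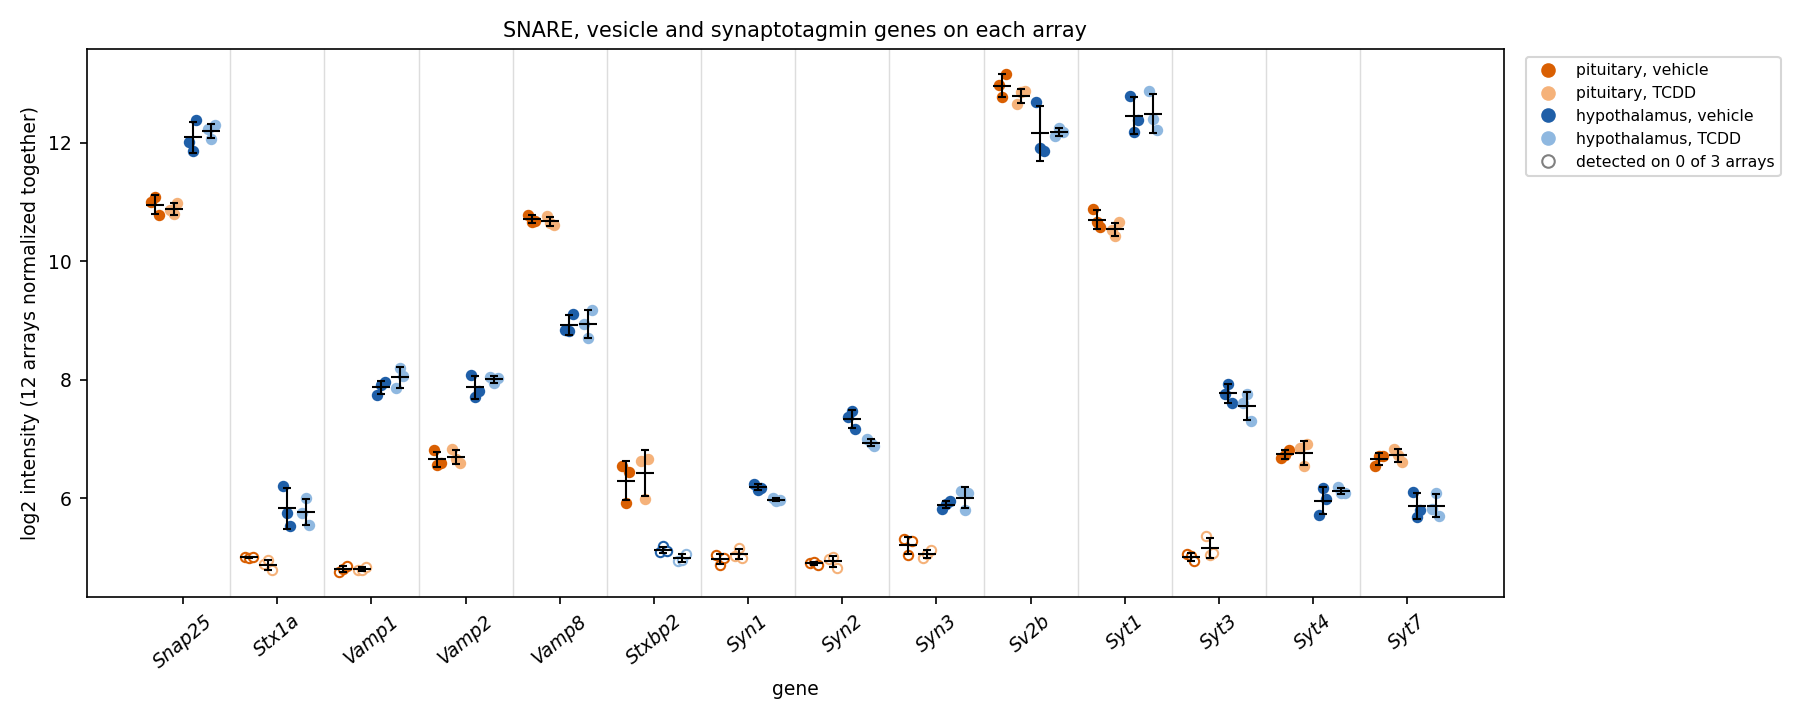
Log2 intensity (y axis) of 14 SNARE, Munc18, synapsin, Sv2 and synaptotagmin probes (x axis) on each of the 12 arrays; points are arrays, colours the 4 groups, open points groups detected on 0 of 3 arrays, and black bars the group mean with its SD. Vamp1, Stx1a, Syt3 and the 3 synapsins are open in the pituitary and Stxbp2 in the hypothalamus.

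Among vesicle proteins, the 3 synapsins were detected in the hypothalamus alone. Syn2 had 7.37, 7.47 and 7.17 in the vehicle hypothalamus, at least 3.61-fold above the vehicle pituitary (adjusted p = 3.76e-10). Syn1 had 6.24, 6.14 and 6.18, at least 1.63-fold higher, and Syn3 had 5.83, 5.90 and 5.96, at least 1.33-fold higher. Sv2a, the broadly expressed Sv2 form, was 1.62-fold higher in the hypothalamus (adjusted p = 0.00629) and was detected on 2 of 3 vehicle pituitary arrays. Sv2b was 1.75-fold higher in the pituitary (adjusted p = 0.00204), at 12.97, 12.77 and 13.16 against 12.69, 11.92 and 11.87. Vehicle hypothalamus array 1 lay just under the lowest pituitary array. On the TCDD arrays Sv2b was 1.52-fold higher in the pituitary. The third form, Sv2c, was not detected on any array.

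The promoters of Vamp1 (chr4:159698644-159698943, plus strand) and Syn1 (chrX:3725495-3725794, plus strand) are shown as members detected in the hypothalamus alone. The capitals are as above.
Vamp1: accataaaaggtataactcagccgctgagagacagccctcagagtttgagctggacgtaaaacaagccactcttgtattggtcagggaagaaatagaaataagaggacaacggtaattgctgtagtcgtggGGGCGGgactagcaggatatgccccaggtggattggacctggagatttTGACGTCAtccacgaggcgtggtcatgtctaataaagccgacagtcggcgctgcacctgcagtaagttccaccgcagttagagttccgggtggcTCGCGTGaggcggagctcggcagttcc
Syn1: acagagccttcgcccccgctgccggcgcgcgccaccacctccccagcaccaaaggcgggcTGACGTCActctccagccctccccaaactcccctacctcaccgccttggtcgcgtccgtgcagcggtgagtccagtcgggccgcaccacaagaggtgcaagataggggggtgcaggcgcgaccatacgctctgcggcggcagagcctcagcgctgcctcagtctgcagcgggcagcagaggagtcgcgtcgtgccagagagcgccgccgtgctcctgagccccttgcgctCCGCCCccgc
Both held TGACGTCA, at -71 in Vamp1 and at -190 in Syn1, counted from the start. These were the only 2 of the 27 promoters of members higher in the hypothalamus that held it. Vamp1 also held a GC box at -119 and the dioxin element core as TCGCGTG at 23, and Syn1 a GC box at 40.

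The synaptotagmins had 16 probes, of which 10 were tested, 5 were higher in the hypothalamus and 2 in the pituitary. Over all probes tested these shares were 28.5% and 35.7%. Syt3, Syt12 and Syt16 passed the detection filter through the hypothalamus arrays alone, which fixed their direction, so the count partly reflects the filter. Of the forms detected on all 12 arrays, Syt1 was higher in the hypothalamus, Syt4 and Syt7 were higher in the pituitary, and Syt6 was not called. Syt1, the fast calcium sensor of synapses and chromaffin granules, had 10.88, 10.66 and 10.58 in the vehicle pituitary against 12.80, 12.19 and 12.38 in the vehicle hypothalamus, a 3.37-fold difference (log2 -1.75, SE 0.179, adjusted p = 2.56e-06). Syt3, which binds calcium with high affinity, was not detected in the pituitary and had 7.77, 7.94 and 7.61 in the vehicle hypothalamus, at least 4.88-fold higher. Syt12 and Syt16, 2 forms that do not bind calcium, were also detected in the hypothalamus alone, at least 1.21-fold and 1.25-fold higher. Syt13 was 1.49-fold higher there, with detection on 1 of 3 vehicle pituitary arrays. The 2 forms higher in the pituitary were Syt7, a slow high-affinity sensor, by 1.74-fold (6.55, 6.72 and 6.72 against 6.11, 5.69 and 5.81; adjusted p = 0.000155) and Syt4, a form of dense-core granules, by 1.71-fold (6.68, 6.73 and 6.82 against 5.72, 6.18 and 5.99; adjusted p = 0.000164). Neither pair of groups overlapped. Not called were Syt5, Syt6 and Syt11, with log2 differences of -0.22, 0.17 and -0.35. Syt10 was detected on 2 arrays, both TCDD hypothalamus, and was not tested. Of the complexins, Cplx1 was 2.91-fold higher in the hypothalamus (7.65, 7.01 and 6.97 against 5.38, 5.85 and 5.79; adjusted p = 8.53e-06), and Cplx3 and Cplx4 were detected on 0 and 1 of the 12 arrays.

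The remaining Rab probes, 42 in all, serve the Golgi, endosomes and membrane recycling. Of 33 tested, 14 were higher in the hypothalamus and 11 in the pituitary (16 and 8 with median scaling, 15 and 9 with cyclic loess). Over all probes tested the shares were 28.5% and 35.7%. Among those called, Rab7b and Rab15 passed the detection filter through the hypothalamus arrays alone and Rab19 through the pituitary arrays alone. Rab25, the epithelial relative of the recycling Rab11 proteins, had 9.45, 9.42 and 9.28 in the vehicle pituitary against 5.65, 5.79 and 5.78 in the vehicle hypothalamus, 12.5-fold higher in the pituitary (log2 3.64, SE 0.0904, adjusted p = 7.13e-12). Rab19 was at least 3.83-fold higher and not detected in the hypothalamus. Rab40b was 2.61-fold higher at 10.11, 10.10 and 9.97 against 9.33, 8.24 and 8.45, with vehicle hypothalamus array 1 above the other two. Rab38, known from pigment granules, was 1.80-fold higher. Rab2a and Rab1a, which act between endoplasmic reticulum and Golgi, were 1.68-fold and 1.63-fold higher in the pituitary, and Rab8a and Rab10, which act in transport to the cell surface, 1.66-fold and 1.54-fold, none with overlapping groups. Rab21, an endosomal Rab, was 1.37-fold higher, a call that median scaling removed (log2 0.22).

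In the other direction, Rab33a, a Golgi-related Rab, had 6.07, 6.25 and 6.22 in the vehicle pituitary against 9.82, 9.62 and 9.63 in the vehicle hypothalamus, 11.4-fold higher in the hypothalamus (adjusted p = 5.26e-11). Rab5c, an early endosome Rab, was 3.96-fold higher. Its close relatives Rab5a and Rab5b did not share that size, with log2 differences of -0.05 (not called) and -0.41. Rab7b and Rab15, both endosomal and detected in the hypothalamus alone, were at least 2.55-fold and 2.07-fold higher. Rab13, a Rab of epithelial junctions, was 2.20-fold higher, Rab6b, the neuronal Golgi form, 2.03-fold by its detected probe, Rab31 1.67-fold, Rab7a, the late endosome Rab, 1.48-fold and Rab2b, the paralog of Rab2a, 1.48-fold. Snap91, which the symbol rule takes in, is a clathrin coat protein and no SNARE; it was 1.70-fold higher in the hypothalamus. Of the Rab partner proteins, Rab3ip (rabin8, an exchange factor for Rab8) had 8.62, 8.14 and 8.84 in the vehicle pituitary against 6.94, 6.87 and 7.06, 2.98-fold higher in the pituitary (adjusted p = 1.05e-06). Rab11fip4 and Rab6b each had a second probe that was not detected on any array.

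The Rab25 promoter (chr2:176304172-176304471, minus strand) is shown for the member with the largest difference towards the pituitary.
Rab25: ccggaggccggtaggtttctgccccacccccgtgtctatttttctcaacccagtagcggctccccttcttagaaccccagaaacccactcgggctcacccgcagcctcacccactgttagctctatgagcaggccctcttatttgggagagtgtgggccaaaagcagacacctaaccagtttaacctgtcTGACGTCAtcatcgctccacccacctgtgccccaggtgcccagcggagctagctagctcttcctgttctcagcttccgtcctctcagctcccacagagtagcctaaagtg
It held TGACGTCA at -60 and no GC box. Promoters were found for 82 of the 104 member symbols. TGACGTCA was in 3 of them (Rab25, Syn1 and Vamp1), 3.66%, against 1.91% of all 27457 promoters and 3.11% of the 7163 promoters of tested genes. The GC box was in 60 (73.2%), against 34.9% and 60.4%. It was in 25 of 27 promoters of members higher in the hypothalamus and 14 of 20 of members higher in the pituitary. The dioxin element core TNGCGTG was in 3 (Rab21, Stx11 and Vamp1), 3.66% against 5.12% and 7.65%. The POU1F1 core TATNCAT, a pituitary factor's motif, was in 0, against 9.59% and 4.16%. The left and right parts of the repressor element RE1, TCAGCACC and GGACAG, were in 2 (Rab3c and Syt4) and 20 promoters, 2.44% and 24.4% against 1.58% and 21.8% of all promoters, and no member promoter held both at 2 bases apart. A match is a description of these letters in this window only.

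Genes that work beside the members were divided along the same tissues. For the counts below, the shares over all probes tested were 28.5% higher in the vehicle hypothalamus and 35.7% in the vehicle pituitary. Of 17 tested probes for docking, priming and the active zone, 11 were higher in the vehicle hypothalamus and 2 in the vehicle pituitary, among them Rph3al, a Rab3 and Rab27 effector of endocrine granules, 5.05-fold higher in the pituitary, and Doc2g, 3.70-fold higher. Ppfia3 was 3.11-fold higher in the hypothalamus. Of 11 probes for vesicle membrane proteins, 8 were higher in the hypothalamus and 1 in the pituitary. They included Syngr3 (at least 21.4-fold, not detected in the pituitary), the glutamate transporter Slc17a6 (7.83-fold) and Synpr (6.04-fold), all higher in the hypothalamus. SNARE disassembly factors and other SNAREs ran 9 to 5 in favour of the pituitary among 17 probes: Sec22b, a SNARE between endoplasmic reticulum and Golgi, was 3.61-fold higher there, while Nsf, which takes SNARE complexes apart, was 3.93-fold higher and its adaptor Napb at least 2.79-fold higher in the hypothalamus. Of 19 exocyst and granule effector probes, 7 were higher in the hypothalamus and 4 in the pituitary (7 and 2 with median scaling, 8 and 2 with cyclic loess). Sytl4 (granuphilin, which binds Rab27a on granules) was at least 4.16-fold higher in the pituitary, and Rabep1 and Rabggta were 1.91-fold and 1.47-fold higher in the hypothalamus. Of 13 endocytosis probes, 7 were higher in the hypothalamus and 1 in the pituitary, with Dnm1, the neuronal dynamin, 15.8-fold, Itsn1 at least 5.13-fold and Synj1 2.37-fold higher in the hypothalamus.

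Maternal TCDD was compared with vehicle inside each tissue. In the pituitary, 66 member probes were tested and 0 passed an adjusted p of 0.05 in limma, against 0% of all 10251 probes. At an unadjusted p under 0.05 there were 2 members (3.03%), against 6.02% of all probes. Rab33a had 6.01, 6.17 and 6.14 on the vehicle arrays and 5.76, 5.59 and 5.85 on the TCDD arrays. Every TCDD array was below every vehicle array, a log2 difference of -0.38 (SE 0.102, unadjusted p = 0.00581, adjusted p = 0.649 by limma). Rab24, a Rab linked to autophagy, had 11.97, 11.99 and 12.08 against 12.16, 12.22 and 12.30, a difference of 0.21 without overlap (SE 0.0868, unadjusted p = 0.0395, adjusted p = 0.822 by limma). Before background correction and normalization, the deposited signals of both genes overlapped. Those of Rab33a were low, at 156.1, 159.5 and 141.2 on the vehicle arrays and 140.3, 127.4 and 141.7 on the TCDD arrays. Leaving out single arrays gave counts between 1 and 6. The 66 differences ranged from -0.41 (Rab27b) to 0.33 (Rab40c), and for 61 of them the 95% interval lay inside a 1.5-fold change in either direction. For members that were higher in the pituitary than in the hypothalamus, the intervals on the log2 scale were -0.417 to 0.0849 for Rab3d, -0.0873 to 0.520 for Rab27a, -0.236 to 0.188 for Rab25, -0.239 to 0.165 for Vamp8 and -0.486 to 0.110 for Sv2b.

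In the hypothalamus, 80 members were tested and 0 passed the adjusted threshold in limma, against 0.00889% of all 11246 probes, which is 1 probe. At an unadjusted p under 0.05 there were 4 members (5.00%), 1 higher and 3 lower, against 5.39% of all probes. Syn2 had 7.46, 7.56 and 7.26 on the vehicle arrays and 7.10, 7.02 and 6.98 on the TCDD arrays. Those groups did not overlap, and the log2 difference was -0.39 (SE 0.116, unadjusted p = 0.00915, adjusted p = 0.884 by limma). Syn1 had 6.32, 6.21 and 6.25 against 6.07, 6.00 and 6.04, also without overlap (log2 -0.23, unadjusted p = 0.0497). Before background correction and normalization, the deposited signals of Syn2 and Syn1 overlapped. Those of Syn1 were low, at 158.9, 156.3 and 145 against 159.3, 140.8 and 140.2. The third synapsin, Syn3, had a difference of 0.13. Rab3ip had 7.03, 6.96 and 7.15 against 7.31, 7.41 and 7.29 (log2 0.29, unadjusted p = 0.0250), without overlap. The Syt13 groups overlapped (log2 -0.34, unadjusted p = 0.0425). Leaving out single arrays gave counts between 1 and 6, and none of these 4 passed adjustment.

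The other hypothalamic members gave intervals around 0. The 80 differences ranged from -0.42 to 0.29, and 71 of the 95% intervals lay inside a 1.5-fold change. Snap25 had an interval of -0.220 to 0.438, Vamp2 of -0.149 to 0.437, Syt1 of -0.422 to 0.489 and Rab3a of -0.119 to 0.540. Rab26 had the largest difference, -0.42, with an interval of -0.940 to 0.0913. TCDD hypothalamus array 1 stood low for it, at 9.44 in the joint normalization against 10.32 on both other TCDD arrays. Beside these values, the summed neuronal marker level was 56900 to 57200 on the vehicle hypothalamus arrays and 59200 to 61600 on the TCDD arrays. Thalamus markers stood at 1300 to 1710 and 1820 to 3260, and striatum markers at 9620 to 25000 and 8570 to 10500. The list named for the neural lobe, which includes Avp and Oxt, stood at 21500 to 36300 and 14500 to 24800. It summed to only 2560 to 2750 in the vehicle pituitary, so in the hypothalamus it does not measure neural lobe tissue. At an unadjusted p under 0.05, 2 of 13 neuronal and 3 of 5 thalamus probes were higher on the TCDD arrays and 0 were lower. By direction alone, all 5 thalamus probes were higher and all 9 striatum probes lower (median log2 -0.59), 0 of the 9 at an unadjusted p under 0.05. All markers of these lists were detected on at least 1 hypothalamus array of each group. Pituitary endocrine markers summed to 3100 to 8340 on the vehicle and 5050 to 13600 on the TCDD hypothalamus arrays. Of these, Fshb, Gnrhr, Pou1f1 and Tbx19 were not detected in either group. In the pituitary the neuronal sums were 14100 to 14600 and 15000 to 15900, those of striatum markers 7820 to 8160 and 9330 to 10000 (8 of 9 probes higher, 2 higher and 1 lower at an unadjusted p under 0.05, smallest adjusted p = 0.0531 by limma), those of astrocyte markers 6080 to 6960 and 7190 to 7820, and those of meningeal and fibroblast markers 20700 to 24300 and 15500 to 18600, with Elavl3, Aqp4 and Slc6a13 not detected in either group. The striatum list also covers cortex, and all 9 of its probes were detected on every vehicle pituitary array. Between the vehicle tissues, 2 of them were called higher and 4 lower in the pituitary. In the pituitary this list therefore does not measure striatum tissue. The part of these marker levels in the TCDD differences was not tested.

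**Figure D4:**
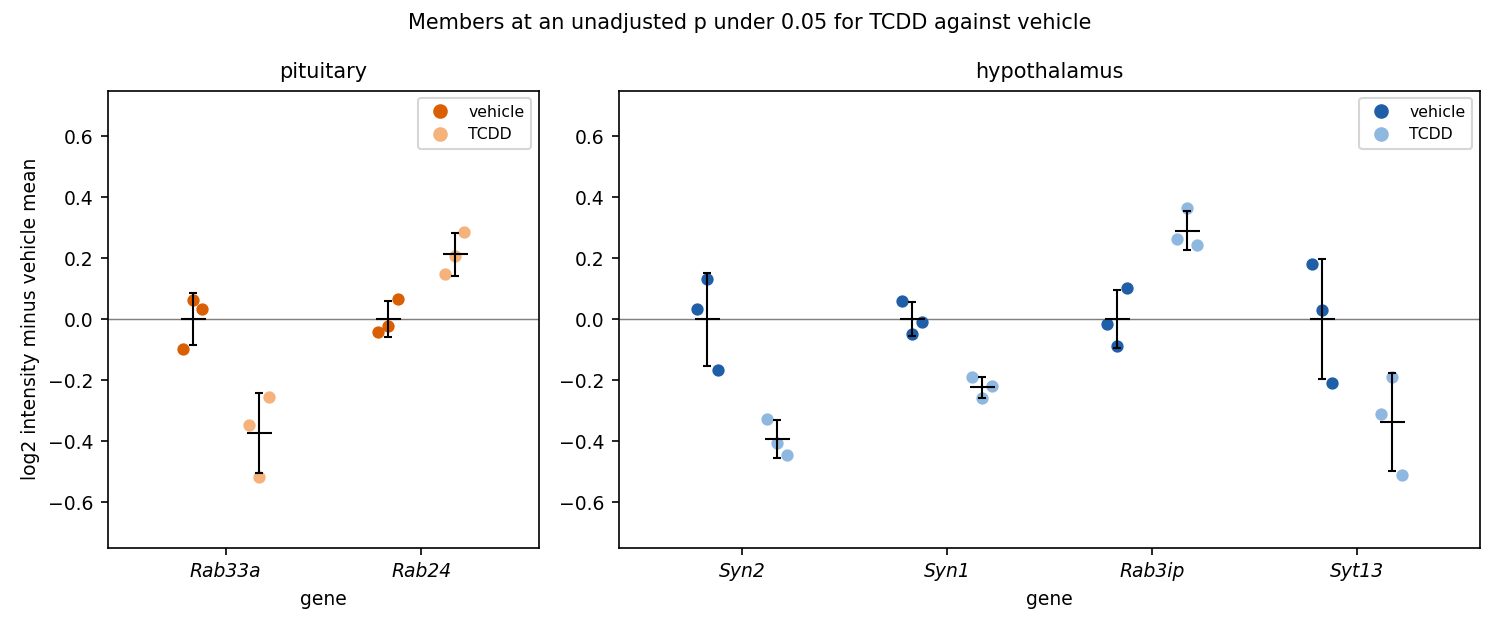
Log2 intensity minus the vehicle mean (y axis) for the 6 members at an unadjusted p under 0.05 (x axis), normalized within each tissue; points are arrays, the lighter colour TCDD, and black bars the group mean with its SD. The groups of Rab33a, Rab24, Syn2, Syn1 and Rab3ip do not overlap and those of Syt13 do; none of the 6 passed adjustment.

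The difference of the TCDD effect between the tissues was tested over all 12 arrays. Of 82 members, 0 passed the adjusted threshold in limma, against 0% of all probes. At an unadjusted p under 0.05 there were 3 (3.66%), against 6.16% of all 12071 probes. Syn2 had a difference of 0.43, pituitary minus hypothalamus (SE 0.137, unadjusted p = 0.00838, adjusted p = 0.723 by limma), Rab4b of 0.48 (unadjusted p = 0.0294) and Syn1 of 0.29 (unadjusted p = 0.0332). The synapsins were not detected in the pituitary, so their values rest on background there. When a probe had to be detected on every array, 0 members were left at an unadjusted p under 0.05. Rab33a was lower on the TCDD arrays of both tissues, by log2 differences of -0.38 in the pituitary and -0.24 in the hypothalamus (unadjusted p = 0.0707, adjusted p = 0.884 by limma). The normalized values did not overlap in either tissue, but the deposited signals overlapped in both. The naming rule for TCDD did not select the hypothalamus value, and the share of all probes with such a pattern is not given here.

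The 5 lists of neighbouring genes also gave 0 members at an adjusted p under 0.05 by limma for TCDD in either tissue. At an unadjusted p under 0.05 there were 5 of 64 tested probes in the pituitary (7.81%, against 6.02% of all probes) and 3 of 76 in the hypothalamus (3.95%, against 5.39%), shares near those of all probes. The pituitary had 1 vesicle membrane probe (Svop, log2 0.27), 1 probe of SNARE disassembly and other SNAREs (Vps33a, -0.36), 3 of exocyst and granule effectors (Exoc4 -0.27, Exoc6 0.21 and Rabggta 0.23), and 0 of priming or endocytosis. The hypothalamus had 2 vesicle membrane probes (Syp, log2 0.29, and Slc17a6, 0.45), 1 endocytosis probe (Cltc, the clathrin heavy chain, 0.33) and 0 of the other 3 lists.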

How the data were processed

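Total RNA (250 ng) was labelled with biotin and hybridised to 12 Illumina RatRef-12 arrays, per the labels. The deposited non-normalized table gives an intensity and a detection p-value per probe and array, per the file headers; the scanner software is not given in the sources used here, nor are slide and scan dates. The authors also deposited intensity values normalized for each tissue separately, used as an alternative within a tissue only. Sample columns not used: 0.

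Background was corrected from the detection p-values (limma 3.58.1 in R 4.3.3, nec, offset 16), followed by quantile normalization and log2. All 12 arrays were fitted together for tissue differences and the difference of TCDD effects, and the 6 arrays of each tissue for TCDD against vehicle, with lmFit, eBayes and Benjamini-Hochberg adjustment (two-sided). Probes detected at p under 0.05 on at least 3 arrays of a fit were tested, without collapsing probes to genes. Levels of different probes were not compared. The procedure was tested on simulated data. Of the probes, 13793 had 1 gene symbol, 0 had several and 8730 had none. Marker and pathway levels are sums of linear normalized intensities.

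The members and gene lists were chosen with earlier results of these data known. Every probe of the lists of SNAREs, synaptotagmins, complexins, vesicle proteins and secretory Rabs was named, plus up to 10 other members per direction by tissue fold, members at an unadjusted p under 0.05 for TCDD (up to 12 per tissue), and up to 3 genes per neighbouring list by tissue fold; the neighbouring genes named for TCDD were chosen after their values were seen. Same-group arrays had correlations of 0.9841 to 0.9933, and 0 pairs of arrays were identical. Alternatives covered normalization, background, detection filter, collapse to genes, variance model, array weights, a replicate block, the authors' table and leaving out each array.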

Additional observations from a re-analysis of the deposited data

Results flagged for a closer look

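Rab21, an endosomal Rab, had a log2 TCDD difference of 0.15 in the pituitary and -0.11 in the hypothalamus, 0.26 apart. Its values were singled out because every TCDD pituitary array lay above the vehicle arrays and every TCDD hypothalamus array below them. The share of all probes with such a pattern is not given here. The test of the difference itself gave an unadjusted p = 0.0588 and an adjusted p = 0.816 in limma, so it did not pass. Groups of 3 arrays were too small to look for a sample that stands apart.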

How the results depend on the processing

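The tissue counts (25 members higher in the vehicle pituitary and 36 in the vehicle hypothalamus, 24 and 37 on the TCDD arrays) stayed within 1.5 times under every alternative run except that requiring detection on every array left 21 higher in the vehicle hypothalamus and 20 in the TCDD hypothalamus, of 57 tested. Leaving out each array gave 23 to 26 and 34 to 37 on the vehicle arrays, and 24 to 26 and 31 to 37 on the TCDD arrays. Counts at an unadjusted p under 0.05 moved more. In the pituitary 2 became 4 with the authors' table and 4 with array weights, and ran from 1 (without vehicle array 1) to 6 (without vehicle array 2 or TCDD array 1), with 5 without vehicle array 3. In the hypothalamus 4 became 2 with median scaling and 2 with a trended, robust variance, and ran from 1 (without vehicle array 2 or TCDD array 1) to 6 without an array, with 2 without TCDD array 3. For the difference between tissues 3 became 0 with detection on every array, 7 without a filter and 5 with array weights, and ran from 2 to 8 without an array, with 5 without vehicle pituitary array 3 and 8 without vehicle hypothalamus array 3. Counts at an adjusted p under 0.05 stayed at 0 throughout.

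Median scaling moved the median tissue difference of all probes on the TCDD arrays from 0.10 to -0.10, and the share of all calls higher in the pituitary there from 55.4 to 38.7%. At an unadjusted p, it moved the share of probes higher on TCDD arrays from 45.4 to 23.1% in the pituitary and from 49.8 to 72.8% in the hypothalamus, and that of positive differences between tissues from 49.1 to 20.8%.

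Vamp7, near 0 in the vehicle comparison, turned to -0.19 with median scaling and -0.12 with cyclic loess. Leaving out single arrays turned Vamp7 (-0.06 to 0.07), Stx4 (-0.11 to 0.03), Rab27b (-0.07 to 0.10) and Stxbp4 (-0.22 to 0.02), none of them called. The cause of these moves was not tested.

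Vehicle and TCDD arrays share the replicate numbers of their descriptions. Same-numbered arrays correlated at 0.08 to 0.22 in the pituitary and 0.08 to 0.24 in the hypothalamus, after the group means were removed. With 3 arrays per group these values cannot decide whether the numbers pair the arrays. In the pituitary every vehicle array correlated best with its own number, and in the hypothalamus only vehicle array 3 did. A replicate block gave 27 and 35 members on the vehicle arrays, 26 and 37 on the TCDD arrays, 2 and 4 members for TCDD at an unadjusted p under 0.05, 4 for the difference between tissues, and 0 at an adjusted p. The sample titles carry other numbers, and the title codes C4 and T2 occur in both tissues without a statement that they mark the same animal. The C4 arrays correlated at -0.21 and the T2 arrays at 0.10. With these codes as a random replicate block, an alternative chosen after seeing the data, the counts were 24 and 37 in both tissue comparisons, and no named member lost or gained a call.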
